A study of Homo sapiens with 12 samples.

Results

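PRSS12 and TMPRSS15 are serine protease genes whose RNA was higher after CD44 deletion in 2 breast cancer cell lines, and they are described here with 8 related genes, 10 genes out of the 58381 in the deposited count table. PRSS12 and TMPRSS15 were chosen from their higher counts in CD44 KO cells of both lines, so these increases are given as descriptions without a test. The other 8 genes (PRSS23, HTRA1, ST14, KLK10, FURIN, SPINT1, SPINT2 and F2RL1) were added as related proteases, inhibitors and a receptor. Hs578T and MDA-MB-231 are mesenchymal-like lines from triple negative breast cancers. Both carried inducible Cas9, and CD44 KO cells received guide RNAs against CD44 exons while CD44 WT cells received transfection reagent only. Live CD29+ cells were then sorted as CD44+ (WT) or CD44- (KO) populations, not single clones, and were kept in low serum before RNA was taken. Each of the 4 groups, WT and KO of each line, had 3 libraries.

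Serine proteases cut proteins with a catalytic serine, and most are made as inactive precursors that another protease must cleave. Trypsin-like enzymes cut after lysine or arginine and are held in check by inhibitors, among them those with a Kunitz domain. PRSS12 encodes neurotrypsin, a secreted protease of neurons known for cleaving agrin at synapses. TMPRSS15 encodes enteropeptidase, a membrane-bound protease of the duodenum known for turning trypsinogen into trypsin. ST14 (matriptase) is a membrane-anchored epithelial protease, and SPINT1 and SPINT2 are its Kunitz inhibitors. PRSS23, HTRA1 and KLK10 are secreted enzymes, and HTRA1 degrades matrix proteins. FURIN, a proprotein convertase of the subtilisin family and not of the trypsin family, activates precursors in the secretory pathway. F2RL1 encodes PAR2, a receptor that trypsin and matriptase switch on by cutting it.

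Totals ranged from 10257586 to 19725543 counts per library, and levels are given as CPM, counts scaled to the size of the library, with TMM factors. CD44 ranged from 493 to 526 CPM in Hs578T WT and from 24.8 to 28.5 CPM in Hs578T KO. The MDA-MB-231 ranges were 359 to 362 CPM in WT and 29.9 to 40.2 CPM in KO. All 5 mesenchymal markers checked, among them VIM, were above the filter. Of the 3 hormone and HER2 receptor genes (ESR1, PGR and ERBB2), 2 were above the filter, and PGR had 0 counts in every group. The 3 receptor genes summed to 77.1 to 83.2 CPM in Hs578T WT and 87.0 to 102 CPM in Hs578T KO. In MDA-MB-231 their sum was 64.6 to 88.0 CPM in WT and 57.3 to 64.0 CPM in KO. EPCAM, an epithelial gene, ranged from 13.7 to 22.1 CPM in MDA-MB-231 and did not exceed 0.0851 CPM in any Hs578T library. Genes entered the tests with over 1 CPM in 2 or more libraries and exons of 300 nt or more in sum, which kept 15836 genes, 8 of the 10 members among them. TMPRSS15 passed only through the 6 KO libraries. The test was edgeR's quasi-likelihood test on all 12 libraries, and calls were made at p up to 0.01 after Benjamini-Hochberg adjustment over all genes tested. It is not stated if each library stands for a culture of its own, so p-values measure only the spread between these libraries.

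PRSS12 was close to undetected in Hs578T WT, present in Hs578T KO and already high in MDA-MB-231 WT. The gene (ENSG00000164099.3) lies on the minus strand of chromosome 4 of GRCh38, from 118280038 to 118353003. The Hs578T WT libraries held 1, 1 and 0 PRSS12 counts, and the Hs578T KO libraries held 46, 79 and 46. Every KO library was thus far above every WT library, and the KO counts came from all 3 libraries. Summed over the groups, 171 KO counts against 2 WT counts gave a depth-adjusted ratio of 81.2 (95% counting interval 22.1 to 676). The log2 change of KO over WT in the fit was 6.09, with a standard error (SE) of 0.366. Each SE in this text is the size of the log2 change divided by the square root of the test's F statistic. Here both values depend on the prior count, because so few WT counts stand behind them. The SE is too narrow for genes with few counts, as the wide counting interval of PRSS12 shows. Intervals cover counting error only.

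In MDA-MB-231, PRSS12 reached 24.6, 26.0 and 22.8 CPM in WT and 40.9, 39.6 and 42.2 CPM in KO. The groups did not overlap, and the spread within each was narrow. The means were 24.5 ± 1.61 CPM in WT and 40.9 ± 1.27 CPM in KO (SD, n = 3 each), a log2 change of 0.74 (SE 0.121) or 1.67-fold. The level of 4.15 ± 0.624 CPM in Hs578T KO (SD, n = 3) remained 0.172 times that of MDA-MB-231 WT (95% counting interval 0.145 to 0.203). From lowest to highest, the groups were Hs578T WT, Hs578T KO, MDA-MB-231 WT and MDA-MB-231 KO, and no neighbours in this order overlapped. MDA-MB-231 WT held 867 PRSS12 counts against the 2 of Hs578T WT, a ratio of 472 (95% counting interval 130 to 3910).

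TMPRSS15 was low in WT cells of both lines and higher in KO cells of both. The gene (ENSG00000154646.8) lies on the minus strand of chromosome 21 of GRCh38, from 18269116 to 18485879. Hs578T WT libraries held 0.761, 0.656 and 0.760 CPM of TMPRSS15, from 8 to 11 counts each. Hs578T KO libraries held 9.84, 19.2 and 14.6 CPM, from 123 to 313 counts. All KO libraries exceeded all WT libraries, although the KO libraries varied among themselves by more than the WT libraries did. The means were 0.726 ± 0.06 CPM in WT and 14.6 ± 4.70 CPM in KO (SD, n = 3 each), a log2 change of 4.31 (SE 0.349) or 19.9-fold.

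In MDA-MB-231, the TMPRSS15 counts were 3, 3 and 10 in WT and 36, 96 and 43 in KO. The groups did not overlap, and the WT library with 10 counts was the one without a replicate number. The means were 0.463 ± 0.369 CPM in WT and 4.12 ± 1.02 CPM in KO (SD, n = 3 each), a log2 change of 3.17 (SE 0.425) or 9.01-fold. Without the unnumbered WT library the log2 change was 4.03. The WT groups of the lines overlapped for TMPRSS15, whereas Hs578T KO (9.84 to 19.2 CPM) lay above MDA-MB-231 KO (3.04 to 5.07 CPM). An annotated gene on the same strand, ENSG00000228708, overlaps the upstream end of TMPRSS15 with 23 counts in all libraries, and reads shared by both genes were not counted. In bulk RNA, more cells that express a gene and more RNA per cell cannot be told apart.

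**Figure D1:**
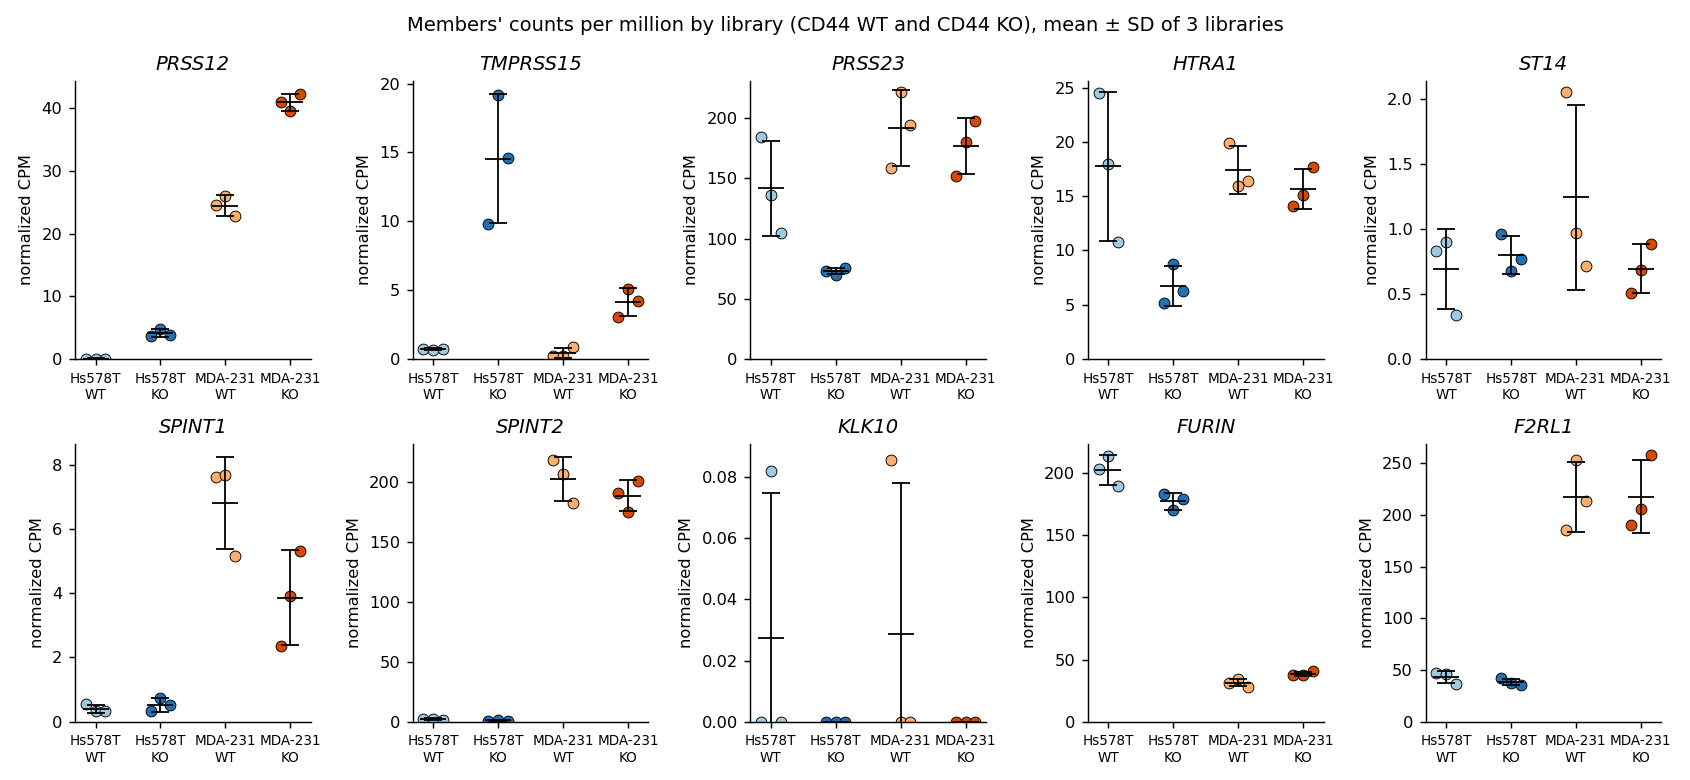
Normalized CPM (y axis, linear, from 0, its own scale in each panel) of the 10 members in the 4 groups (x axis), with 1 point per library and bars for the mean ± SD of 3 libraries. The group means of PRSS12 go from 0.0504 to 40.9 CPM, TMPRSS15 is high in KO cells of both lines, and PRSS23 and HTRA1 are lower in Hs578T KO than in Hs578T WT.

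The sequences upstream of the annotated starts of PRSS12 and TMPRSS15 are shown because both genes were higher in KO cells while their promoters differ in base composition. They are the 250 bases before the RefSeq start in GRCh38.p14, chr4:118353004-118353253 and chr21:18403786-18404035, both on the minus strand and written 5′ to 3′. Capitals mark matches on either strand to TATAAA, to the AP-1 motif TGANTCA, to the TEAD motif GGAATG, to the E-box CANNTG or to the GC box GGGCGG.
PRSS12: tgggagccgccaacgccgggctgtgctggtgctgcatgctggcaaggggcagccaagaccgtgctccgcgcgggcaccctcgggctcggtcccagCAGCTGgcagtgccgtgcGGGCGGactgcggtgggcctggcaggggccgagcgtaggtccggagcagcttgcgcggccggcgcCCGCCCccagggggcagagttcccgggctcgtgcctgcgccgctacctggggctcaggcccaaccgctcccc
TMPRSS15: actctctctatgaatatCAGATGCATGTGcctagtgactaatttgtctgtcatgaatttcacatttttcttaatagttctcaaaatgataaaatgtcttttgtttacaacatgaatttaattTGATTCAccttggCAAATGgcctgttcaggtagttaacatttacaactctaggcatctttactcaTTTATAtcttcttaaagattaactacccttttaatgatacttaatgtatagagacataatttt
Over the 300 bases from 250 before to 50 after the start, the PRSS12 promoter was 76.0% G or C with 35 CpG dinucleotides, and the TMPRSS15 promoter was 31.7% G or C with 0 CpG. The median of the 35116 RefSeq promoters of this length was 58.7% with 14 CpG, which put PRSS12 at percentile 92.2 and TMPRSS15 at percentile 1.74 for G and C. PRSS12 held 2 GC boxes, found in 45.0% of all promoters, and 1 E-box, found in 68.7%. TMPRSS15 held 3 E-boxes, 1 AP-1 match, found in 7.71% of all promoters, and 1 TATA match beginning 63 nt before the start, found in 11.5%. Neither held the TEAD motif, which 14% of promoters have. The matches are descriptions of letters and not binding sites. The RefSeq start of PRSS12 coincides with the end of the gene in the count table, while that of TMPRSS15 lies 82.1 kb inside the longer gene counted there.

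PRSS23 and HTRA1, both secreted proteases, fell in Hs578T KO and did not pass the test in MDA-MB-231. PRSS23 (ENSG00000150687.11, chromosome 11, 86791059 to 86952910) reached 184, 136 and 105 CPM in Hs578T WT and 73.3, 70.2 and 75.6 CPM in Hs578T KO. The KO libraries were tightly grouped below the lowest of 3 widely spread WT libraries. The means were 142 ± 39.6 and 73.0 ± 2.74 CPM (SD, n = 3 each), a log2 change of -0.96 (SE 0.169, edgeR adjusted p = 0.0013). In MDA-MB-231, PRSS23 averaged 192 ± 31.5 CPM in WT and 177 ± 23.4 CPM in KO (SD, n = 3 each), with overlapping libraries and a log2 change of -0.12 (SE 0.166, edgeR adjusted p = 0.727).

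HTRA1 (ENSG00000166033.11, chromosome 10, 122461525 to 122514908) reached 24.5, 18 and 10.8 CPM in Hs578T WT and 5.12, 8.73 and 6.29 CPM in Hs578T KO. All 3 KO libraries lay below the WT libraries, but the closest pair, WT replicate 3 and KO replicate 2, differed little. The means were 17.8 ± 6.84 and 6.72 ± 1.84 CPM (SD, n = 3 each), a log2 change of -1.39 (SE 0.252, edgeR adjusted p = 0.00157). In MDA-MB-231 the HTRA1 means were 17.4 ± 2.17 and 15.6 ± 1.88 CPM (SD, n = 3 each), with overlap and a log2 change of -0.16 (SE 0.238, edgeR adjusted p = 0.747). The HTRA1 call in Hs578T was lost without WT replicate 1 (adjusted p = 0.0109), KO replicate 1 (0.0117) or KO replicate 3 (0.0113), and the PRSS23 call without KO replicate 2 (0.013), all by edgeR. The difference of the changes between the lines, Hs578T minus MDA-MB-231, was -0.84 for PRSS23 (SE 0.236, edgeR adjusted p = 0.0344) and -1.23 for HTRA1 (SE 0.346, edgeR adjusted p = 0.034), neither past the threshold.

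ST14 and KLK10 did not pass the filter and were not tested. ST14 held 4 to 24 counts per library and averaged 0.690 CPM in Hs578T WT, 0.801 in Hs578T KO, 1.24 in MDA-MB-231 WT and 0.693 in MDA-MB-231 KO, with all groups overlapping. KLK10 had 1 count over the 3 Hs578T WT libraries, 1 over the 3 MDA-MB-231 WT libraries and 0 in both KO groups.

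The Kunitz inhibitor SPINT2 (ENSG00000167642.12, chromosome 19, 38244035 to 38292614) separated the lines. SPINT2 averaged 203 ± 18 CPM in MDA-MB-231 WT and 2.13 ± 0.601 CPM in Hs578T WT (SD, n = 3 each), a log2 change of -6.55 for Hs578T over MDA-MB-231 (SE 0.172, edgeR adjusted p = 1.04e-13). In Hs578T, SPINT2 was counted at 2.49, 2.46 and 1.43 CPM in WT and 0.880, 1.48 and 0.766 CPM in KO. The highest KO library was just above the lowest WT library, and the log2 change of -0.99 (SE 0.278, edgeR adjusted p = 0.0262) did not pass. It passed without Hs578T WT replicate 3 (edgeR adjusted p = 0.00722), without the filter on low counts (edgeR adjusted p = 0.0038) and by DESeq2 (adjusted p = 0.00769). In MDA-MB-231 KO the mean SPINT2 level was 189 ± 13.4 CPM (SD, n = 3), a log2 change of -0.10 (SE 0.117, edgeR adjusted p = 0.654).

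SPINT1 (ENSG00000166145.14, chromosome 15, 40844018 to 40858207), the other matriptase inhibitor, was also lower in Hs578T. It averaged 0.406 ± 0.127 CPM in Hs578T WT and 6.81 ± 1.44 CPM in MDA-MB-231 WT (SD, n = 3 each), a log2 change of -4.01 (SE 0.377, edgeR adjusted p = 1.4e-07). Its MDA-MB-231 libraries held 7.61, 7.68 and 5.15 CPM in WT and 2.37, 3.91 and 5.32 CPM in KO. Only the highest KO library reached the range of WT, and the log2 change of -0.83 (SE 0.274, edgeR adjusted p = 0.0727) did not pass. In Hs578T, with 4 to 12 counts per library, SPINT1 had a log2 change of 0.37 (SE 0.528, edgeR adjusted p = 0.716).

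FURIN (ENSG00000140564.11, chromosome 15, 90868592 to 90883458) had opposite library orders in the lines. In Hs578T it reached 203, 214 and 190 CPM in WT and 183, 170 and 179 CPM in KO, so that every KO library was below every WT library. In MDA-MB-231 it reached 31.5, 34.1 and 28.3 CPM in WT and 37.7, 37.9 and 40.5 CPM in KO, so that every KO library was above every WT library. Neither change passed, at -0.19 in Hs578T (SE 0.0842, edgeR adjusted p = 0.155) and 0.30 in MDA-MB-231 (SE 0.0917, edgeR adjusted p = 0.0492) on the log2 scale by edgeR. The difference between these changes was -0.49 (SE 0.125, edgeR adjusted p = 0.0202) and did not pass either. DESeq2 called the difference for FURIN and for HTRA1. Between the WT groups FURIN was higher in Hs578T, with a log2 change of 2.69 (SE 0.0924, edgeR adjusted p = 1.48e-12).

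F2RL1 (ENSG00000164251.4, chromosome 5, 76818933 to 76835315), the receptor for trypsin-like enzymes, did not pass in either line. It averaged 43.3 ± 5.73 and 38.6 ± 3.28 CPM in Hs578T WT and KO and 218 ± 33.6 and 218 ± 35.6 CPM in MDA-MB-231 WT and KO (SD, n = 3 each). The log2 changes were -0.17 in Hs578T (SE 0.142, edgeR adjusted p = 0.497) and 0.00 in MDA-MB-231 (SE 0.133, edgeR adjusted p = 1), with overlapping libraries in both. F2RL1 was lower in Hs578T WT than in MDA-MB-231 WT by a log2 change of -2.33 (SE 0.143, edgeR adjusted p = 9.98e-10).

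**Figure D2:**
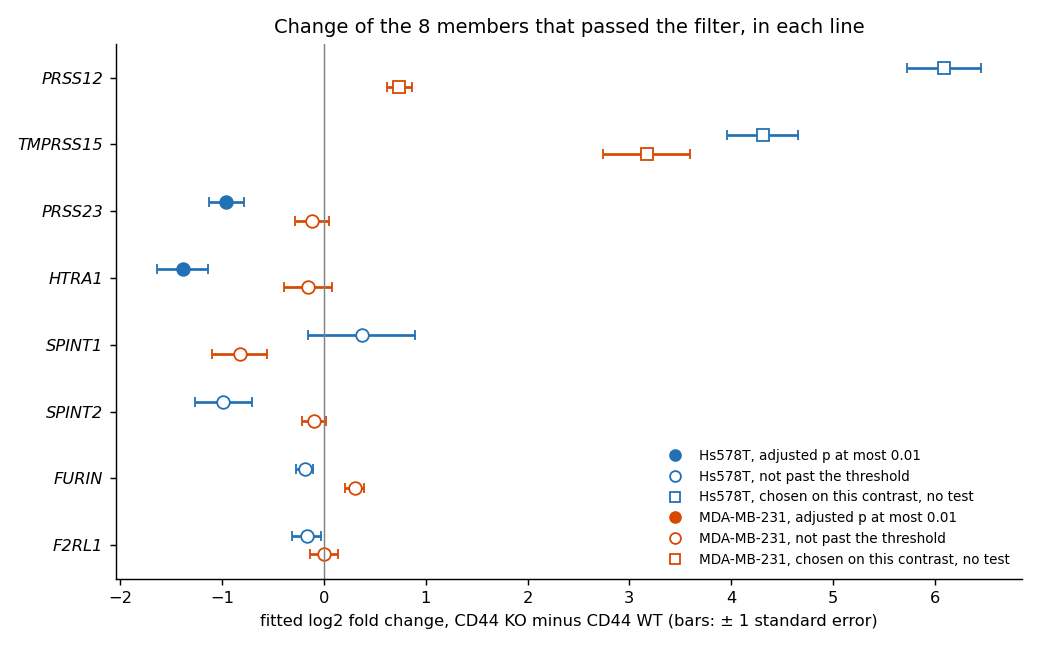
Fitted log2 change of CD44 KO over CD44 WT (x axis, bars ± 1 SE) for the 8 members that passed the filter (y axis), in Hs578T and MDA-MB-231. Filled circles passed an adjusted p of at most 0.01, open circles did not, and squares are PRSS12 and TMPRSS15, which were chosen on these contrasts and have no test. The filled circles are PRSS23 at -0.96 and HTRA1 at -1.39 in Hs578T. The SE bars derive from the F statistic and are too narrow where counts are few, as for PRSS12 in Hs578T.

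PRSS12 and TMPRSS15 aside, 6 members were tested, which were listed with earlier results of these data known. Of these 6, 2 were lower in Hs578T KO and 0 were higher, where 3.86% of all 15836 genes tested were called lower and 3.64% higher. In that line 4 had an unadjusted p under 0.05 (PRSS23, HTRA1, SPINT2 and FURIN), and DESeq2 called 3, with SPINT2 beside PRSS23 and HTRA1. In MDA-MB-231 0 were called by edgeR and 0 by DESeq2, with 2 at an unadjusted p under 0.05 (SPINT1 and FURIN), where 2.65% of all genes were called lower and 1.97% higher. The change differed between the lines for 0 members by edgeR, with 4 at an unadjusted p under 0.05 and 2 called by DESeq2, where 4.12% of all genes were called. KO libraries lay wholly below WT libraries in Hs578T for 3 of the 6 members (PRSS23, HTRA1 and FURIN) and wholly above for 0, against 18.6% and 18.7% of all genes. In MDA-MB-231 they lay wholly below for 0 and above for 1 (FURIN), against 13.7% and 11.8%. Between the WT groups 1 member (FURIN) was higher and 3 (SPINT1, SPINT2 and F2RL1) were lower in Hs578T, where 32.2% of all genes were called higher and 29.4% lower, so calls between the lines were common. PRSS23 and HTRA1 were not called between the WT groups, at log2 changes of -0.43 (SE 0.166, edgeR adjusted p = 0.0288) and 0.03 (SE 0.236, edgeR adjusted p = 0.903). With a replicate block from the running label numbers PRSS23 was called there, at -0.44 (edgeR adjusted p = 0.00736).

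Levels of different genes were compared as CPM per kb of exonic length. This length covers all annotated exons of a gene, from 2120 nt for HTRA1 to 11725 nt for PRSS23, and the order between genes depends on it. In CPM without this division, F2RL1 (186 to 253) and SPINT2 (183 to 219) overlapped in MDA-MB-231 WT. In Hs578T WT, FURIN was highest at 42.7 ± 2.49, followed by F2RL1 at 14.6 ± 1.94, PRSS23 at 12.1 ± 3.38 and HTRA1 at 8.37 ± 3.23 CPM per kb (SD, n = 3 each). The ranges of F2RL1, PRSS23 and HTRA1 overlapped from each gene to the next. In MDA-MB-231 WT, F2RL1 was highest at 73.6 ± 11.4, followed by SPINT2 at 39.0 ± 3.47, PRSS23 at 16.3 ± 2.68, HTRA1 at 8.22 ± 1.02, FURIN at 6.62 ± 0.615 and PRSS12 at 4.28 ± 0.281 CPM per kb (SD, n = 3 each), and no neighbours in this order overlapped. In Hs578T KO, TMPRSS15 reached 3.44 ± 1.11 and PRSS12 0.725 ± 0.109 CPM per kb, and in MDA-MB-231 KO they reached 0.972 ± 0.241 and 7.14 ± 0.221 CPM per kb (SD, n = 3 each). The order of the pair was thus opposite in the KO cells of the lines. ST14 stayed at or below 0.286 CPM per kb on average in every group.

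**Figure D3:**
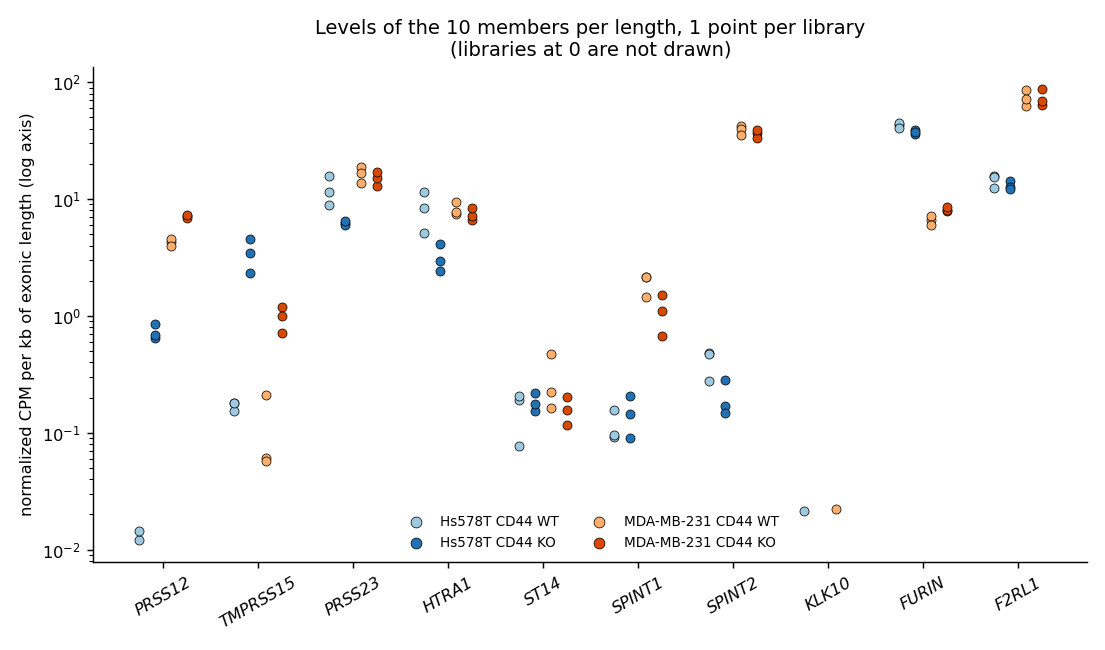
Normalized CPM per kb of exonic length (y axis, log scale) of the 10 members (x axis), with 1 point per library coloured by group and libraries at 0 not drawn. SPINT2, SPINT1 and PRSS12 differ most between the lines, and PRSS12 and TMPRSS15 differ most between WT and KO.

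The other genes of the same pathways came from 10 lists of proteases, inhibitors, receptors and substrates, of whose 133 genes 51 passed the filter. In Hs578T KO 4 were called higher (PRSS2, TFPI2, F2RL3 and MET) and 3 lower (F2RL2, DSG2 and SCNN1A), and in MDA-MB-231 KO 1 was called higher (TFPI2) and 2 lower (SLPI and F2RL2). Over all genes tested these shares were 3.64% higher and 3.86% lower in Hs578T, and 1.97% and 2.65% in MDA-MB-231. F2RL3 and F2RL2 passed the filter only through libraries of groups where they were higher, so their calls are descriptions. Without them, PRSS2, TFPI2 and MET were called higher and DSG2 and SCNN1A lower in Hs578T. In MDA-MB-231, TFPI2 was then called higher and SLPI lower. In Hs578T the 51 genes had a median log2 change of -0.06, beside 0.00 over all genes tested, and in MDA-MB-231 -0.07, beside -0.01. For the 28 genes with at least 50 counts in each line, the medians were 0.00 and -0.04. No other membrane-anchored protease, kallikrein, HtrA protease, complement protease or proprotein convertase was called in either line. PRSS21, a membrane-anchored protease, averaged 84.2 ± 2.76 CPM in Hs578T WT (SD, n = 3) and had 0 counts in MDA-MB-231.

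Among secreted proteases, PRSS2, a trypsinogen and so a substrate of enteropeptidase, rose in Hs578T KO. Its libraries ranged from 1.11 to 2.53 CPM in WT and from 5.04 to 9.53 CPM in KO, a log2 change of 2.03 (SE 0.335, edgeR adjusted p = 0.00206). PRSS2 had 0 counts in all MDA-MB-231 libraries, and its near-identical paralogs make its counts uncertain, since fragments aligned to several places were left out. The call was lost without Hs578T WT replicate 1, WT replicate 2, KO replicate 2 or KO replicate 3 (adjusted p up to 0.0157, edgeR).

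TFPI2, a secreted Kunitz inhibitor of trypsin and plasmin, rose in both lines. It ranged from 0.346 to 0.760 CPM in Hs578T WT and from 2.47 to 4.18 CPM in Hs578T KO, a log2 change of 2.70 (SE 0.309, edgeR adjusted p = 3.14e-05). In MDA-MB-231 it ranged from 17.7 to 22.0 CPM in WT and from 38.8 to 45.1 CPM in KO, a log2 change of 1.03 (SE 0.153, edgeR adjusted p = 4.73e-04). Both calls held when any of the 12 libraries was left out. That in MDA-MB-231 was lost with a replicate block within each line, which also left out the unnumbered WT library (adjusted p = 0.0119, edgeR). Like PRSS12, TFPI2 was higher in MDA-MB-231 WT than in Hs578T KO. SLPI, an inhibitor of neutrophil elastase, fell in MDA-MB-231 from 34 counts over the WT libraries to 3 over the KO libraries, a ratio of WT to KO of 13.1 (95% counting interval 4.13 to 66.8; adjusted p = 0.00873, edgeR). That call held in 3 of 12 fits without 1 library, and was lost without Hs578T WT replicate 2, any Hs578T KO library, any MDA-MB-231 WT library or MDA-MB-231 KO replicate 1 or 2 (adjusted p up to 0.0618, edgeR).

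Of the protease-activated receptors beside F2RL1, F2RL3 (PAR4) rose in Hs578T KO and F2RL2 (PAR3) fell in both lines. F2RL3 had 5 counts over the Hs578T WT libraries and 96 over the KO libraries, a log2 change of 4.08 (SE 0.614, edgeR adjusted p = 3.45e-04). F2RL3 passed the filter only through the Hs578T KO libraries (1.02 to 3.6 CPM), so its p-values are given as descriptions. In MDA-MB-231 it had 1 WT count and 18 KO counts, a ratio of 15.5 (95% counting interval 2.45 to 647; adjusted p = 0.0503, edgeR). F2RL2 averaged 1.30 ± 0.114 and 0.274 ± 0.0404 CPM in Hs578T WT and KO, and 2.04 ± 0.459 and 0.632 ± 0.257 CPM in MDA-MB-231 WT and KO (SD, n = 3 each). Its log2 changes were -2.22 (SE 0.398, edgeR adjusted p = 0.00145) and -1.71 (SE 0.328, edgeR adjusted p = 0.00376). F2RL2 passed the filter only through WT libraries, with at most 0.32 CPM in Hs578T KO and 0.929 CPM in MDA-MB-231 KO. Its p-values are likewise given as descriptions. The Hs578T call was lost without KO replicate 2 (adjusted p = 0.0121), and the MDA-MB-231 call without WT replicate 1, KO replicate 2 or KO replicate 3 (up to 0.0351), by edgeR. F2R (PAR1), the thrombin receptor, was not called, at log2 changes of -0.19 (edgeR adjusted p = 0.308) and 0.26 (edgeR adjusted p = 0.153).

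Of the substrates, AGRN, which encodes agrin, and its receptor LRP4 were not called. AGRN averaged 393 ± 56.6 and 360 ± 25.9 CPM in Hs578T WT and KO, and 180 ± 26.8 and 203 ± 10.6 CPM in MDA-MB-231 WT and KO (SD, n = 3 each). Its log2 changes were -0.13 (SE 0.118, edgeR adjusted p = 0.534) and 0.18 (SE 0.119, edgeR adjusted p = 0.413). DSG2, a desmosomal cadherin, fell in Hs578T KO from 141 to 10 counts over the groups, a log2 change of -3.83 (SE 0.799, edgeR adjusted p = 0.00439). SCNN1A, a sodium channel subunit cut by FURIN and other proteases, fell in Hs578T KO from 7.61 ± 3.89 to 1.55 ± 0.353 CPM (SD, n = 3 each), a log2 change of -2.29 (SE 0.349, edgeR adjusted p = 3.88e-04). MET, the receptor of a growth factor that matriptase activates, rose in Hs578T KO from 98.9 ± 4.68 to 155 ± 13.2 CPM (SD, n = 3 each), a log2 change of 0.65 (SE 0.143, edgeR adjusted p = 0.00632). The MET call was lost when any of the 6 Hs578T libraries was left out (adjusted p up to 0.0415, edgeR), and the DSG2 call without Hs578T WT replicate 1, WT replicate 2, KO replicate 1 or KO replicate 3 (up to 0.0311). All 10 DSG2 counts of Hs578T KO came from 1 library, the log2 change ran from -8.53 to -3.26 with 1 library left out, and robust estimation lost the call (adjusted p = 0.0232, edgeR).

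**Figure D4:**
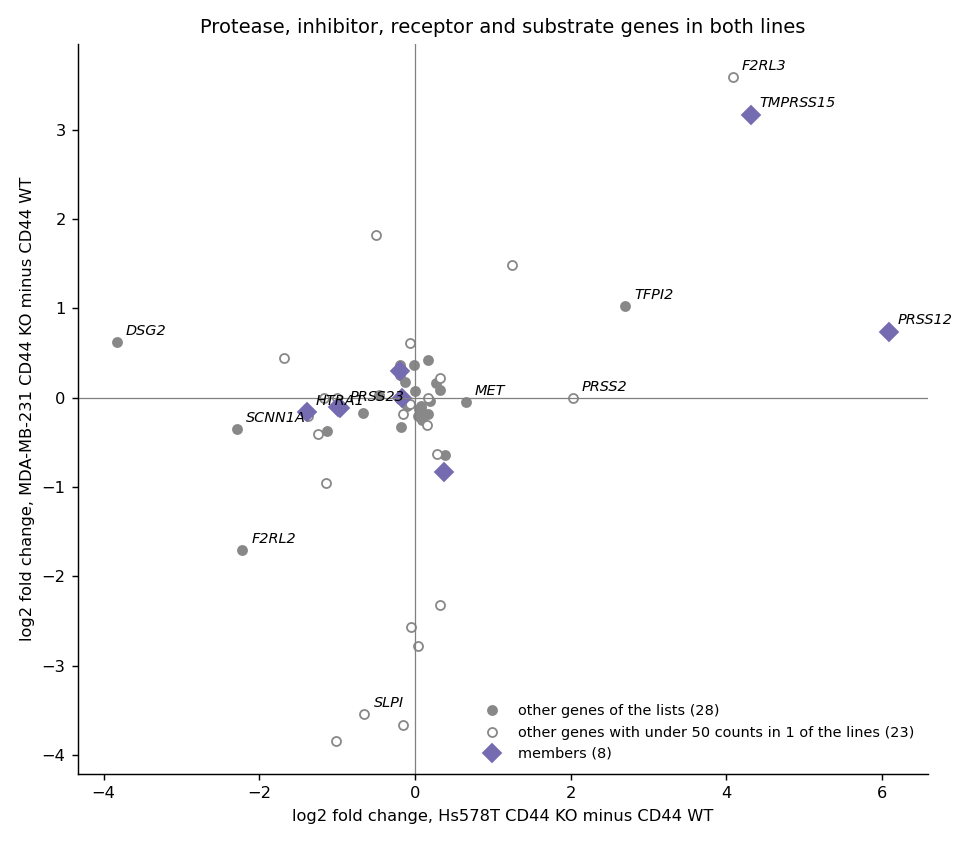
Fitted log2 change of CD44 KO over CD44 WT in Hs578T (x axis) and in MDA-MB-231 (y axis), with purple diamonds for the 8 members and circles for the 51 other genes of the lists. Open circles mark the 23 genes with under 50 counts in 1 of the lines, whose position depends on the prior count. PRSS12, TMPRSS15, TFPI2 and F2RL3 lie to the upper right, and F2RL2 to the lower left.

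Genes around PRSS12 and TMPRSS15 were read to see whether their neighbours moved as well. Of the 29 genes annotated within 1 Mb of PRSS12, 9 were tested, 1 was called, higher in Hs578T KO, and 0 in MDA-MB-231 KO (edgeR), where 3.64% of all genes tested were called higher in Hs578T KO. The called gene was SNHG8, a small nucleolar RNA host gene on the plus strand whose end lies 215 nt from the 3′ end of PRSS12. Its log2 changes were 0.56 in Hs578T (SE 0.117, edgeR adjusted p = 0.00462) and 0.22 in MDA-MB-231 (SE 0.113, edgeR adjusted p = 0.265). The Hs578T call was lost without any 1 of the WT libraries or without KO replicate 1 or 2 (adjusted p up to 0.0222, edgeR). On the upstream side the nearest tested gene, CEP170P1, lay 115 kb away with log2 changes of 0.67 (edgeR adjusted p = 0.224) and 0.49 (edgeR adjusted p = 0.421). Counting used strand, so PRSS12 and SNHG8 reads were kept apart.

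Of the 33 genes within 1 Mb of TMPRSS15, 6 were tested and 0 were called in either line (edgeR). CHODL, which ends 1.74 kb from the 3′ end of TMPRSS15 on the other strand, had log2 changes of 0.44 in Hs578T (edgeR adjusted p = 0.403) and -3.29 in MDA-MB-231 (SE 1.49, edgeR adjusted p = 0.203). MIR548XHG, 75.4 kb upstream on the same strand, had log2 changes of 0.87 in Hs578T (SE 0.201, edgeR adjusted p = 0.0105) and 1.82 in MDA-MB-231 (SE 1.36, edgeR adjusted p = 0.532).

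**Figure D5:**
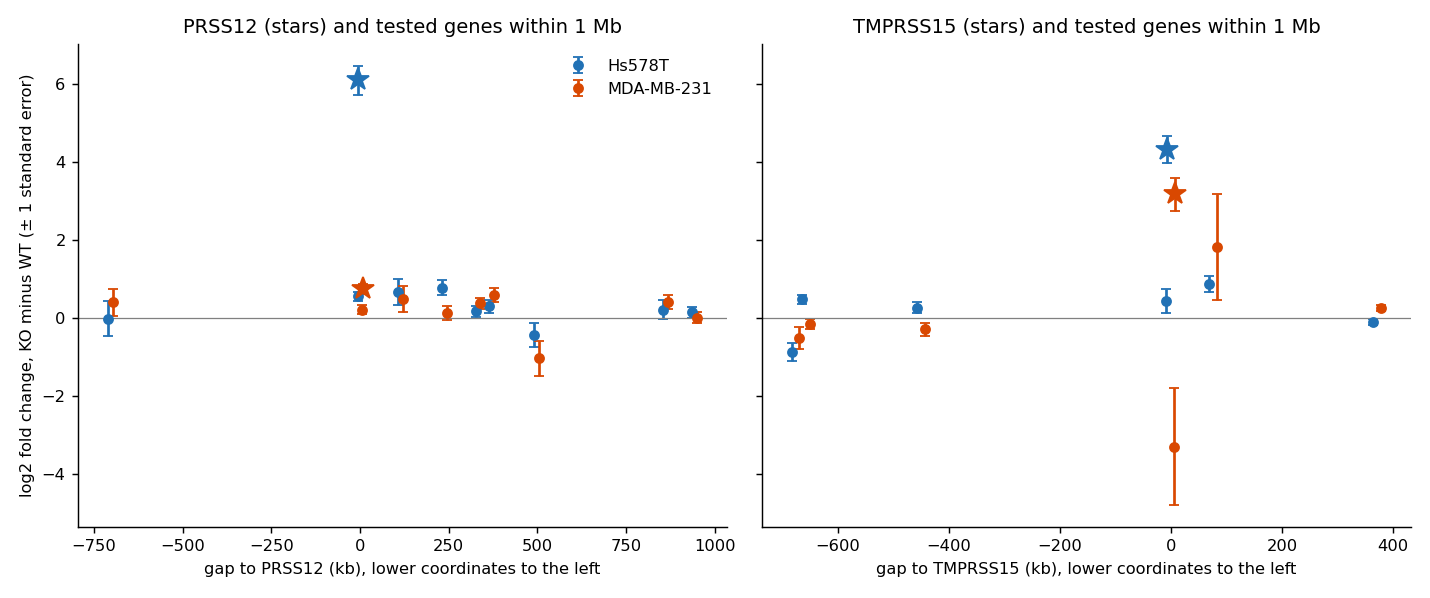
Fitted log2 change of CD44 KO over CD44 WT (y axis, bars ± 1 SE) of the tested genes within 1 Mb of PRSS12 (left) and TMPRSS15 (right), by the gap to that gene in kb (x axis), with stars for PRSS12 and TMPRSS15 themselves. The lines are drawn slightly apart for legibility, and the stars stand above the neighbours of both genes in Hs578T. The SE bars derive from the F statistic and are too narrow where counts are few, as for PRSS12 in Hs578T.

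Genes with the most similar pattern were ranked by Pearson correlation of log2 CPM over the 12 libraries, as a description in which libraries share group, line and depth. For PRSS12 they were DPYD (0.996), SHISA3 (0.995), and LIPE, GNAI1 and LINC02582 (0.994 each). All 5 had the same order of group means as PRSS12. GNAI1, a G protein subunit, averaged 0.327 ± 0.158, 5.90 ± 0.269, 20.5 ± 3.67 and 23.4 ± 1.10 CPM in Hs578T WT, Hs578T KO, MDA-MB-231 WT and MDA-MB-231 KO (SD, n = 3 each). TFPI2 had this order of group means as well, with the ranges given above. SPINT2, EPCAM and DSG2, also higher in MDA-MB-231 WT than in Hs578T WT, were at most 1.48, 0.0851 and 0.615 CPM in the Hs578T KO libraries. These genes were not picked by a rule for this comparison, and the cause of either pattern was not tested.

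For TMPRSS15 the most similar genes were SYT1 (0.967), DOCK10 and OGA (0.942 each), TTLL7 (0.935) and OSBPL6 (0.931). SYT1, a synaptic vesicle protein, averaged 3.13 ± 0.605, 14.5 ± 4.81, 3.10 ± 0.976 and 7.68 ± 0.766 CPM in the same 4 groups (SD, n = 3 each), so that its KO means were higher in both lines, with Hs578T KO highest, as for TMPRSS15. PRSS12 and TMPRSS15 themselves correlated at 0.163 over the 12 libraries, with PRSS12 highest in MDA-MB-231 KO and TMPRSS15 highest in Hs578T KO.

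Marker genes of the cells known for these proteases were read beside them. All 7 enterocyte markers had 0 counts in MDA-MB-231, and their sum ranged from 0.0844 to 0.415 CPM in Hs578T WT and from 0.307 to 0.425 CPM in Hs578T KO. FABP2, ALPI, APOA4 and SI had 0 counts in every library. The sum of 6 pancreatic acinar markers did not exceed 1.54 CPM in any library and was 0 in Hs578T KO, where PRSS2 rose. The sum of 6 neuron markers ranged from 3.25 to 5.57 CPM in Hs578T WT and from 15.3 to 24.4 CPM in Hs578T KO. In MDA-MB-231 the neuron sum was 2.14 to 4.18 CPM in WT and 6.89 to 8.24 CPM in KO. SYT1 made up most of this sum, with GAP43 at 3.91 to 4.24 CPM in Hs578T KO, whereas STMN2 had 0 counts in every library and RBFOX3, SNAP25 and SYN1 did not exceed 0.170 CPM. Leukocyte markers summed to 1.11 to 1.48 CPM in Hs578T WT and 4.06 to 5.36 CPM in Hs578T KO, mostly PTPRC at 3.20 to 4.80 CPM, and to at most 1.58 CPM in MDA-MB-231. Endothelial markers summed to 11.9 to 14.3 CPM in Hs578T WT and 16.4 to 16.9 CPM in Hs578T KO, and to 6.15 to 9.69 CPM in MDA-MB-231 WT and 14.1 to 15.6 CPM in MDA-MB-231 KO. Adipocyte markers summed to at most 0.484 CPM in Hs578T, to 1.45 to 2.02 CPM in MDA-MB-231 WT and to 3.30 to 4.12 CPM in MDA-MB-231 KO. The 7 epithelial markers summed to 973 to 1010 CPM in Hs578T WT and 888 to 942 CPM in Hs578T KO, and to 1210 to 1520 CPM in MDA-MB-231 WT and 975 to 1130 CPM in MDA-MB-231 KO. Such sums can rest on a few abundant genes and do not describe every marker of a list. EPCAM, an epithelial marker, did not exceed 0.0851 CPM in any Hs578T library. The sum of the 5 mesenchymal markers overlapped between WT and KO in Hs578T, at 8860 to 10300 and 9260 to 11500 CPM. In MDA-MB-231 this sum was 5700 to 5940 CPM in WT and 7140 to 8210 CPM in KO. VIM alone, among these markers, did not overlap in Hs578T, at 3720 to 3980 CPM in WT and 4910 to 5140 CPM in KO. In MDA-MB-231 VIM ranged from 4700 to 5050 CPM in WT and from 6250 to 7240 CPM in KO. The part of these genes in the PRSS12 and TMPRSS15 values was not tested.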

How the data were processed

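RNA of 12 libraries was sequenced as paired 50 bp reads from stranded mRNA libraries. The authors aligned reads to GRCh38 with HISAT2 (2.1.0), counted fragments per gene with featureCounts (1.6.2) on GENCODE, and deposited whole-number counts for 58381 genes without normalization. Fragments aligned to several places or genes were left out, which lowers counts of close paralogs. In MDA-MB-231 CD44 WT, 1 library was kept unnumbered, since the labels of replicates 2 and 3 both carry its column name.

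Counts were fitted with edgeR 4.0.16 in R 4.3.3 (TMM factors, legacy quasi-likelihood fit, 4 group means, all 12 libraries). The script was run on simulated counts with the same spread for every gene, and with changes in Hs578T KO only. That run does not cover the uneven spread between these libraries or the differences between the lines. The published length limit was read as at least 300 nt, since keeping only shorter genes would drop almost all of the table. Totals of 10257586 to 19725543 counts limit precision for weakly expressed genes. Ratios of groups with few counts have exact 95% intervals, and log2 CPM for correlations used a prior count of 2. DESeq2 1.42.0, other scalings, filters, thresholds and fits, and leaving out each library were run as alternatives. Promoters of 8 members matched a RefSeq table. Gene names matched for 57754 identifiers.

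The members and gene lists were chosen with earlier results of these data known. Other list genes were named when called with no overlap between KO and WT libraries, up to 4 per list and line. F2R, AGRN, LRP4 and PRSS21 were chosen after their values were seen. Around PRSS12 and TMPRSS15, the nearest tested gene on each side and called genes within 1 Mb were named, with the 5 genes most alike each. Plasminogen activators and serpins were left out.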

Additional observations from a re-analysis of the deposited data

Results flagged for a closer look

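The change of TFPI2, a Kunitz inhibitor, differed between the lines by 1.66 on the log2 scale (Hs578T minus MDA-MB-231, SE 0.36, adjusted p = 0.00841, edgeR), with higher KO than WT libraries in both. This call held in 3 of 12 fits without 1 library, with values from 1.38 to 2.05 and adjusted p up to 0.0471. It was also lost in 4 of 9 other alternatives (library size only, the newer quasi-likelihood fit and both replicate blocks), with adjusted p up to 0.0528. The change of DSG2, a desmosomal cadherin, differed by -4.44 (SE 0.84, edgeR adjusted p = 0.00347), since it fell in Hs578T and had a log2 change of 0.62 in MDA-MB-231 (adjusted p = 0.186). That call held in 8 of 12 such fits, with values from -9.16 to -3.88 and adjusted p up to 0.0184, and was lost with robust estimation (adjusted p = 0.0203).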

How the results depend on the processing

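The called members were PRSS23 and HTRA1 in Hs578T, none in MDA-MB-231 and none for the difference between the lines. The count in Hs578T was 3, with SPINT2 added, by DESeq2, without the filter and at a threshold of 0.05. It was 1 with a log2 change of at least 1 in size required, and from 1 to 3 with 1 library left out. In MDA-MB-231 it was 1 (FURIN) at a threshold of 0.05. For the difference, DESeq2 called 2 (HTRA1 and FURIN), a fit without the filter 2 (PRSS23 and HTRA1) and a threshold of 0.05 called 3, while leaving out 1 library gave 0 to 2, the 2 without Hs578T WT replicate 3. Calls between the WT groups ranged from 4 to 5 with 1 library left out, and PRSS23 was the added call without the filter and at a threshold of 0.05. Of the other pathway genes, 7 were called in Hs578T, 12 without the filter and 4 to 9 with 1 library left out. The 7 include F2RL3 and F2RL2, whose p-values are descriptions. In MDA-MB-231 3 were called, F2RL2 among them, and 9 without the filter. The count there was 1 with each line fitted alone, 5 at a threshold of 0.05, and 1 to 4 with 1 library left out. The cause was not tested. Values near 0 that were not called changed sign. The log2 change of HTRA1 between the WT groups ranged from -0.26 to 0.30 with 1 library left out, that of SPINT1 in Hs578T from -0.00248 to 0.69, and that of F2RL1 in MDA-MB-231 from -0.14 to 0.12.

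Deviations from the group means correlated from -0.096 to 0.022 between Hs578T libraries of the same replicate number, so numbers did not pair the libraries there. In MDA-MB-231 the same-number pairs, at 0.008 and 0.164, also share a running label set, so pairing by number and by set cannot be told apart. Libraries that share a running label set correlated positively in all 6 pairs, at 0.031, 0.101 and 0.134 in Hs578T and 0.008, 0.164 and 0.099 in MDA-MB-231, and in Hs578T each WT library correlated best with the KO library of its own set, a hint from the data and not the design. With a replicate block from the numbers within each line, a fit that also left out the unnumbered WT library, 0 other pathway genes were called in MDA-MB-231. With a replicate block from the running label numbers, PRSS23 was called between the WT groups, at -0.44 (edgeR adjusted p = 0.00736), which made 5 calls there, and HTRA1 had a log2 change of -0.0188. Depth limits PRSS12 in Hs578T WT, with 2 counts, and SPINT1, ST14 and KLK10 in Hs578T.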
